A study of Mus musculus with 6 samples.

Results

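The genes described are 45 components of TGF-β, activin and BMP signaling, chosen by symbol from the 24214 RefSeq features counted in 393P cells. They comprise 3 TGF-β ligands, 4 latent TGF-β binding proteins (LTBPs), 2 activin subunits, 4 BMP ligands, the protease Bmp1, 5 type I receptors, 4 type II receptors, 3 co-receptors or decoy receptors, 6 receptor-regulated or common SMADs, 2 inhibitory SMADs, 2 SMURF ubiquitin ligases, 3 nuclear corepressors, 3 secreted antagonists and 3 ID genes. All 45 were present in the count tables and all 45 passed the filter on low counts, among 13892 genes tested. The 393P line is an epithelial line from a murine lung adenocarcinoma (LUAD) and is labelled as KP lung cancer cells of strain C57BL/6. The samples were 3 of 393P cells carrying an empty vector (393P_vector) and 3 of 393P cells carrying a ZEB1 expression vector (393P_ZEB1), all grown in RPMI-1640 with fetal calf serum. ZEB1 is a zinc finger repressor that drives epithelial-to-mesenchymal transition (EMT). Total RNA was sequenced on the SOLiD platform. The labels do not say whether the 3 samples of a group came from separate cultures or clones, so p-values measure the spread between these samples, which may be technical, and 1 parental line stands behind both groups.

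Ligands of this family bind paired type II and type I serine/threonine kinase receptors, and the activated type I receptor phosphorylates a receptor-regulated SMAD. TGF-β and activin receptors act mainly through SMAD2 and SMAD3 and BMP receptors through SMAD1, SMAD5 and SMAD9, and both branches share SMAD4 as partner. LTBPs hold TGF-β in a latent complex in the matrix, secreted antagonists such as follistatin, gremlin and noggin trap ligands, and SMAD6, SMAD7, the SMURFs, SKI and SKIL dampen the signal inside the cell. TGF-β is a classical inducer of EMT, and ZEB1 protein is known to bind E-box sequences and SMAD complexes. The RNA values below are levels of transcript and carry no information on ligand protein, SMAD phosphorylation or signaling activity.

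Total counts ranged from 54442450 to 79158012 per sample, and levels are given as CPM, which adjusts each count for the library size. The floor used for detection, 3 counts, was 0.0361 to 0.0561 CPM depending on the sample, on the same scale. Floors cover counting error only. Zeb1 itself was at 21.5 ± 0.435 CPM (SD, n = 3) in 393P_vector and 51.7 ± 3.01 CPM (SD, n = 3) in 393P_ZEB1 samples. Of 6 epithelial markers 5 were lower in 393P_ZEB1 by edgeR (Cdh1, Epcam, Krt8, Krt18 and Cldn4, not Krt19), against 19.3% of all genes. The 5 mesenchymal markers (Vim, Fn1, Cdh2, Zeb2 and Zeb1) were higher, against 18.3% of all genes, with log2 fold changes of 0.41 to 2.04. Zeb1, the gene of the vector, is not a separate check among them. Other genes often linked to EMT, outside this list, were mixed. Tagln (log2 fold change -6.51), Acta2 (-2.21) and Itga5 (-0.59) were lower, and Col3a1 (3.75) was higher. Snai1 (0.27) and Snai2 (-0.03) did not pass. Lung epithelial markers (Nkx2-1, Sftpc, Sftpa1 and Scgb1a1) were below 1 CPM in all 6 samples, with Scgb1a1 at 0 in all 6, and the summed level of the fibroblast, the endothelial and the immune list was at most 3.64 CPM in any sample. 393P_vector replicate 3 stood apart. Among genes averaging at least 1 CPM, 7.27% and 7.86% differed at least 2-fold between it and 393P_vector replicates 1 and 2, against 0.271% between those and 0.577% to 0.780% between 393P_ZEB1 samples. Whole chromosomes also differed between the lines. The largest shift was that of chromosome Y, with a median log2 fold change of -6.89 over 6 tested genes. The genes described do not lie on it, and the cause of this shift was not tested. Chromosome 18 had a median log2 fold change of 0.64 over 396 tested genes. Smad2, Smad4, Smad7 and Bambi lie there, as does Zeb1, whose log2 fold change of 1.26 was 0.63 above that median. In bulk RNA, fewer cells with a transcript and less of it per cell cannot be told apart.

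Between 393P_vector and 393P_ZEB1 samples, Inhba, Bmp2, Bmp7, Tgfb2, Fst and Grem1 rose and Inhbb, Bmp6, Nog and Tgfbr2 fell, among others. Of the 14 genes of ligands, latency and processing 9 passed the test, of the 12 receptors and co-receptors 4, and of the 8 SMADs 4. By edgeR's quasi-likelihood test with Benjamini-Hochberg adjustment over all tested genes, 22 of the 45 genes passed an adjusted p of 0.05, a share of 48.9% against 37.6% of all genes tested. Of these, 14 were higher in 393P_ZEB1 (31.1%, against 18.3% of all genes) and 8 were lower (17.8%, against 19.3% of all genes). The share that passed with a change of at least 2-fold was 26.7%, or 12 genes, where all genes gave 17.1%. In 27 of the 45 (60.0%) the 3 samples of one group lay entirely above those of the other, which held for 52.8% of all genes. The shares of lower and of non-overlapping genes were therefore near the background. The median log2 fold change was 0.16 over the 45 genes and -0.02 over all genes. An exact two-sided permutation test over 3 samples against 3 cannot give a p below 0.1, and it gave 0.1 for each of the 12 genes with a 2-fold change.

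**Figure D1:**
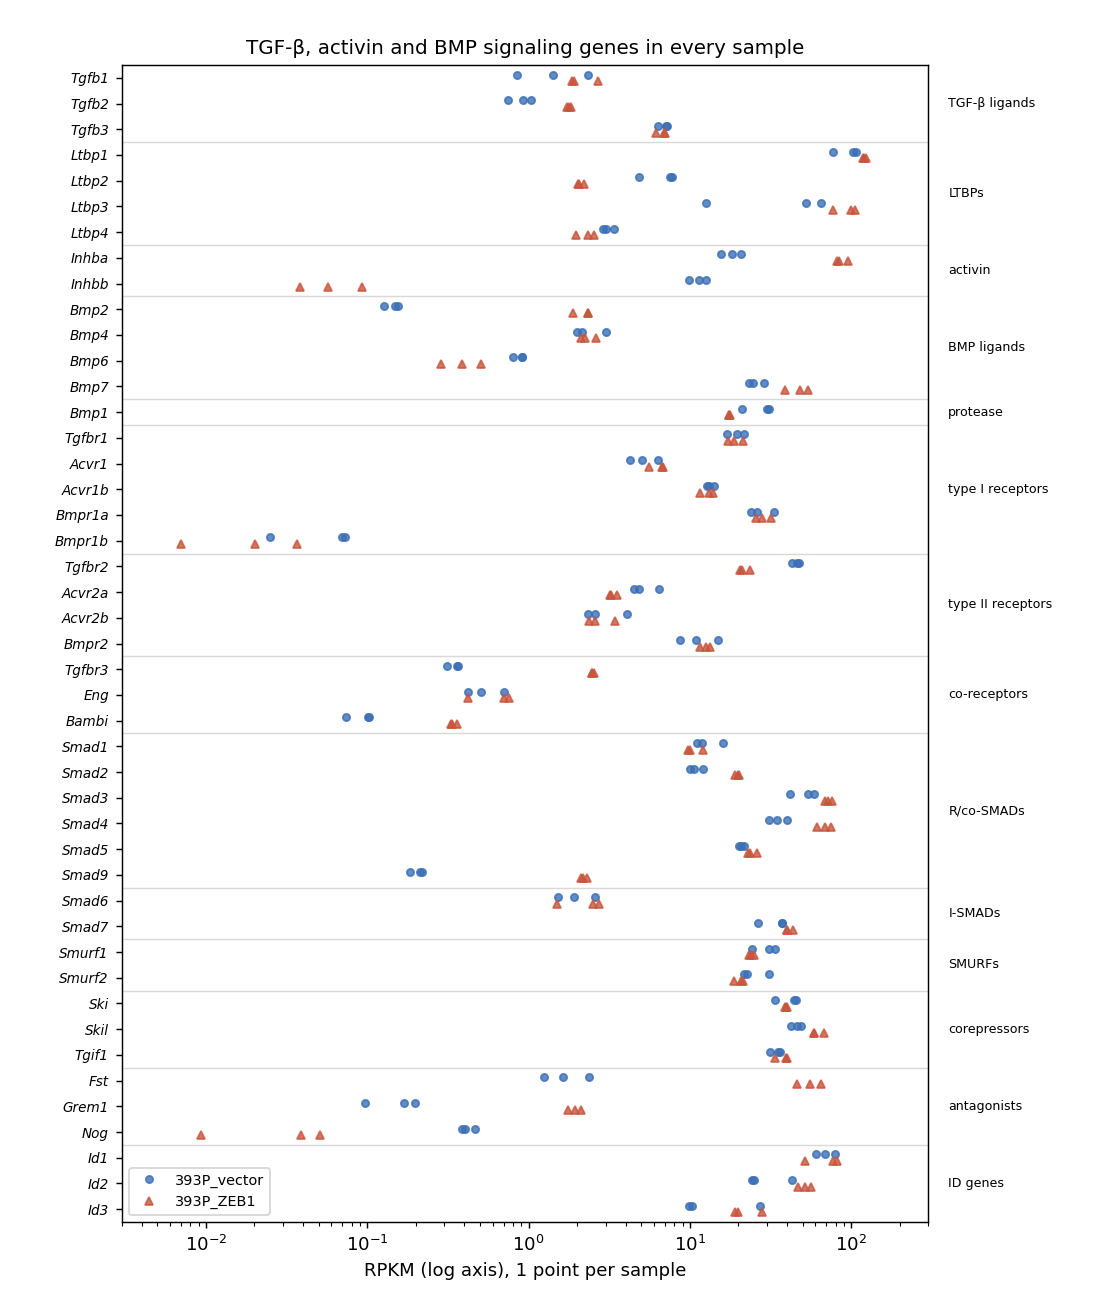
RPKM of the 45 genes in each of the 6 samples, on a log axis and grouped by role, with blue circles for 393P_vector and red triangles for 393P_ZEB1. The groups are far apart for Inhba, Inhbb, Bmp2, Tgfbr3, Smad9, Fst, Grem1 and Nog, and overlap for all 5 type I receptors.

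Levels are compared between genes as RPKM, here the TMM-scaled CPM per kilobase of the deposited exon length. In 393P_vector samples the highest mean among the 45 was 95.3 ± 16.0 RPKM (SD, n = 3) for Ltbp1, followed by Id1 at 69.4 ± 9.31 RPKM (SD, n = 3) and Smad3 at 51.6 ± 8.76 RPKM (SD, n = 3). The samples of Ltbp1 and Id1 overlapped in level. In 393P_ZEB1 samples Ltbp1 was again highest at 120.5 ± 2.88 RPKM (SD, n = 3), and Ltbp3, Inhba, Smad3, Id1, Smad4, Skil, Fst and Id2 each averaged over 50 RPKM. The plot of RPKM by sample shows this order.

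The activin subunits moved in opposite directions. Inhba encodes the βA subunit of activin A and Inhbb the βB subunit of activin B. Inhba was at 27.8, 31.6 and 23.7 CPM in 393P_vector replicates 1 to 3 and at 124, 128.5 and 146 CPM in 393P_ZEB1 replicates 1 to 3. Every 393P_ZEB1 sample was thus above every 393P_vector sample, and the log2 fold change was 2.26 (SE, the standard error of the fit, 0.14, edgeR adjusted p = 1.41e-05). Inhbb was at 48.25, 53.9 and 42.3 CPM in 393P_vector samples and at 0.243, 0.396 and 0.164 CPM in 393P_ZEB1 samples, which is above the floor of 3 counts. It fell by 7.49 on the log2 scale (SE 0.28, edgeR adjusted p = 1.73e-06), the largest change among the 45. Both exons of Inhbb held more than 10 reads in each 393P_vector sample, and 1, 1 and 0 exons did in the 393P_ZEB1 samples. As a share of the summed RPKM of both subunits, Inhba made up 61.5% ± 0.534 (SD, n = 3) in 393P_vector and 99.9% ± 0.0352 (SD, n = 3) in 393P_ZEB1 samples.

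BMP ligands changed one by one. Bmp7, the most abundant of the 4, was at 45.8, 48.2 and 56.1 CPM in 393P_vector and at 76.6, 106.4 and 94.6 CPM in 393P_ZEB1 samples. The groups did not overlap, and Bmp7 rose by 0.89 on the log2 scale (SE 0.15, edgeR adjusted p = 0.00272). Bmp2, a ligand of the BMP type I receptors with roles in bone and heart formation, was low in 393P_vector samples, at 0.318, 0.391 and 0.373 CPM, and stood at 5.91, 5.90 and 4.72 CPM in 393P_ZEB1 samples. Its log2 fold change was 3.92 (SE 0.21, edgeR adjusted p = 6.08e-06). Bmp6 was low in every sample, at 1.93, 2.18 and 2.20 CPM in 393P_vector and 1.22, 0.684 and 0.934 CPM in 393P_ZEB1. The samples of the groups did not overlap, and Bmp6 fell by 1.15 on the log2 scale (SE 0.24, edgeR adjusted p = 0.00798). Bmp4 had a log2 fold change of -0.04, and its groups overlapped. Summed over the 4 genes, BMP ligand RPKM was 28.9 ± 3.32 (SD, n = 3) in 393P_vector and 52.1 ± 7.75 (SD, n = 3) in 393P_ZEB1 samples, of which Bmp7 contributed 88.3% ± 0.724 and 90.5% ± 1.51 (SD, n = 3 each). Bmp2 contributed 0.499% ± 0.0571 and 4.28% ± 0.934 (SD, n = 3 each). Bmp6 shares 5.74% of its annotated exon bases with Txndc5 on the opposite strand, and whether counting used strand is not given in the sources used here.

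The 3 TGF-β isoforms changed less than the activins. Tgfb2 rose, with a log2 fold change of 0.98 and no overlap between the groups (edgeR adjusted p = 0.00246). Tgfb3, the most abundant isoform, was at 24.1, 24.4 and 21.4 CPM in 393P_vector and 20.75, 23.6 and 23.3 CPM in 393P_ZEB1 samples, so the groups overlapped (log2 fold change -0.05, edgeR adjusted p = 0.784). Tgfb1 was at 1.77, 2.96 and 4.85 CPM in 393P_vector and 3.87, 3.98 and 5.59 CPM in 393P_ZEB1 samples. Its groups overlapped through 393P_vector replicate 3, and the adjusted p was 0.32 from edgeR. Summed TGF-β ligand RPKM was 9.33 ± 0.293 (SD, n = 3) and 10.6 ± 0.766 (SD, n = 3), with Tgfb3 at 74.1% ± 6.95 and 63.0% ± 2.53 of it (SD, n = 3 each). Tgfb3 shares 12.4% of its annotated exon bases with transcripts on the opposite strand.

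LTBPs split. Ltbp2, which binds microfibrils but not latent TGF-β itself, was at 49.3, 50.5 and 31.6 CPM in 393P_vector samples and at 13.2, 13.5 and 14.6 CPM in 393P_ZEB1 samples. All 393P_ZEB1 samples were lower, and Ltbp2 fell by 1.67 on the log2 scale (SE 0.19, edgeR adjusted p = 0.000388). In 393P_vector samples 33 of its 35 exons held more than 10 reads, and 21, 24 and 29 did in 393P_ZEB1 samples. An antisense transcript covers 9.34% of its annotated exon bases. Ltbp4, which binds latent TGF-β1, was at 16.8, 18.8 and 16.1 CPM in 393P_vector and 10.9, 13.03 and 14.1 CPM in 393P_ZEB1 samples. The groups did not overlap (log2 fold change -0.44, edgeR adjusted p = 0.0424), but the call was lost when any 1 sample other than 393P_vector replicate 3 was left out, with adjusted p up to 0.132.

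Ltbp1 and Ltbp3, both carriers of latent TGF-β, were the most abundant LTBPs and lay higher in every 393P_ZEB1 sample without passing the test. Ltbp1 was at 862, 832 and 623 CPM in 393P_vector and 999.9, 953 and 975 CPM in 393P_ZEB1 samples (log2 fold change 0.34, edgeR adjusted p = 0.0987). Ltbp3 was at 336, 271 and 65.3 CPM in 393P_vector and 511, 541 and 399 CPM in 393P_ZEB1 samples (log2 fold change 1.11, SE 0.51, edgeR adjusted p = 0.124). 393P_vector replicate 3 was the lowest sample for both genes. Without it, the log2 fold change was 0.21 for Ltbp1 (edgeR adjusted p = 0.0465) and 0.67 for Ltbp3 (edgeR adjusted p = 0.00343), both past the threshold with a smaller change than with all 6 samples.

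Bmp1, a metalloprotease that cleaves procollagen and releases ligands from antagonists such as chordin, was at 133, 137 and 93.4 CPM in 393P_vector and 77.0, 77.2 and 78.2 CPM in 393P_ZEB1 samples. It fell by 0.65 on the log2 scale (edgeR adjusted p = 0.0135). Leaving out any 393P_ZEB1 sample ended the call, with adjusted p between 0.0534 and 0.0585 from edgeR. The log2 fold change stayed at -0.641 to -0.635 in those fits, where 25.7% to 26.2% of all genes were called. The genes of chromosome 14 had a median log2 fold change of -0.26, and relative to it Bmp1 was at -0.38 (edgeR adjusted p = 0.101).

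The secreted antagonists showed some of the largest changes, also in opposite directions. Fst encodes follistatin, which binds activins almost irreversibly, and was at 5.51, 3.79 and 2.89 CPM in 393P_vector and 151, 129 and 108 CPM in 393P_ZEB1 samples. Its lowest 393P_ZEB1 sample was far above its highest 393P_vector sample, and the log2 fold change was 4.998 (SE 0.28, edgeR adjusted p = 7.9e-06). Grem1, the gene of gremlin 1, a trap for BMP2, BMP4 and BMP7, was at 0.159, 0.323 and 0.277 CPM in 393P_vector and 3.44, 2.88 and 3.18 CPM in 393P_ZEB1 samples (log2 fold change 3.62, SE 0.27, edgeR adjusted p = 3.85e-05). Nog encodes noggin, another BMP trap, and went the other way, with 0.777, 0.748 and 0.891 CPM in 393P_vector and 0.0748, 0.018 and 0.0983 CPM in 393P_ZEB1 samples. The latter were counts of 4, 1 and 6 reads, so that 1 sample was under the floor, and Nog fell by 3.61 on the log2 scale (SE 0.42, edgeR adjusted p = 0.000419). Nog was thus below 1 CPM in all 6 samples, and Grem1 in the 393P_vector samples. Fst made up 5.57% ± 1.6 (SD, n = 3) of the summed RPKM of Fst, Inhba and Inhbb in 393P_vector samples and 38.9% ± 5.92 (SD, n = 3) in 393P_ZEB1 samples.

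**Figure D2:**
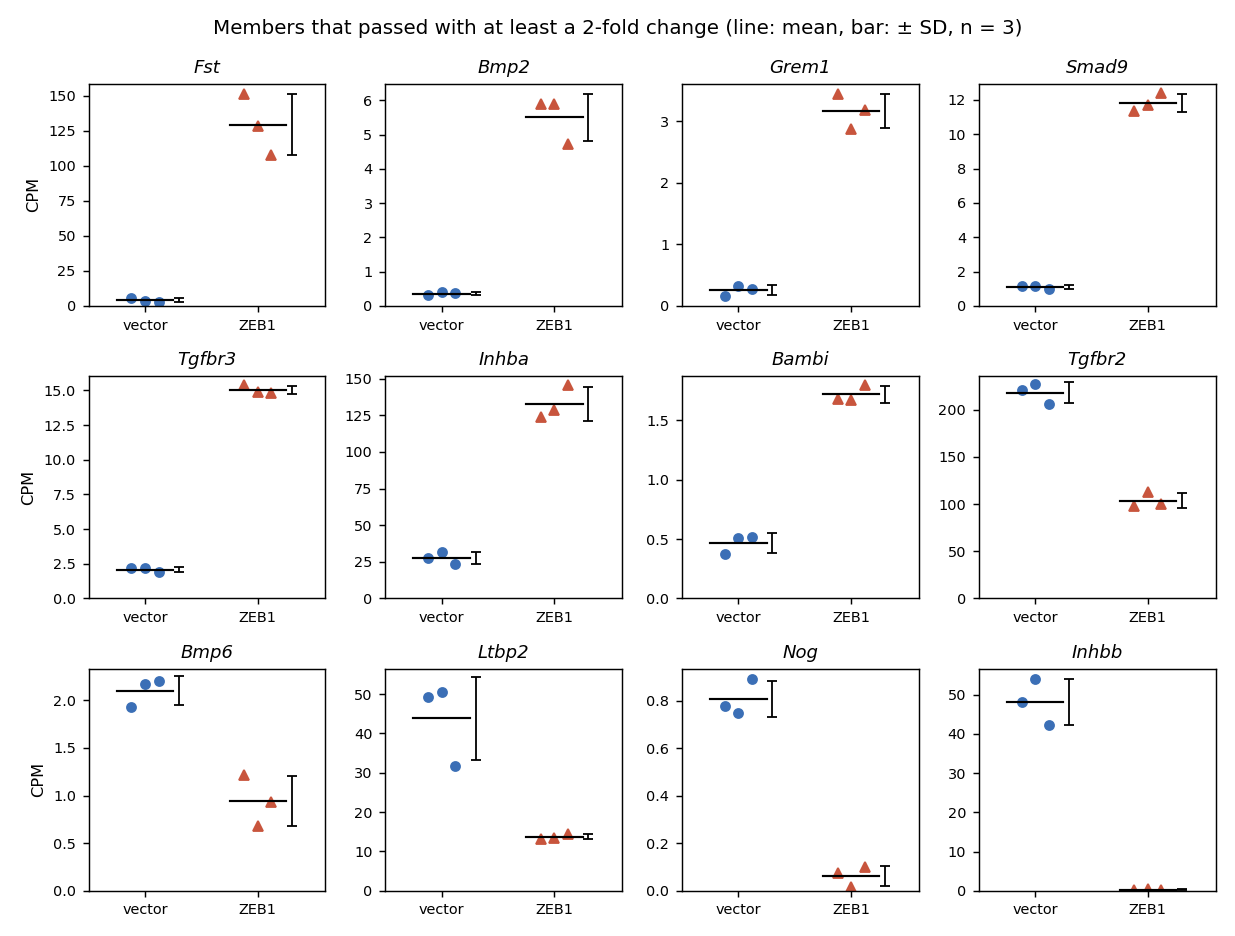
CPM per sample of the 12 genes that passed the test with at least a 2-fold change, each on its own linear axis from 0, with the mean as a line and the SD as a bar beside it (n = 3). In each of the 12 panels the 3 samples of one group lie above all 3 of the other, and Inhbb and Nog are near 0 in 393P_ZEB1.

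Type I receptors, the kinases that phosphorylate SMADs, were 0 of 5 past the test, against 37.6% of all genes tested, and overlapped between groups in 5 of 5, where 52.8% of all genes did not overlap. At an unadjusted p below 0.05 edgeR also had 0 of the 5, and DESeq2's adjusted p 0 of the 5, while limma's voom with sample weights called 2, Acvr1 and Bmpr1b. Voom with sample weights called 58.1% of all genes tested. Bmpr1a, a BMP receptor and the most abundant of the 5, was at 143, 131 and 181 CPM in 393P_vector and 174, 152 and 139.6 CPM in 393P_ZEB1 samples. Tgfbr1, the TGF-β type I receptor, and Acvr1b, the activin type I receptor, had log2 fold changes of -0.03 and -0.05. Acvr1 was at 13.9, 16.5 and 20.8 CPM in 393P_vector and 18.4, 21.9 and 22.5 CPM in 393P_ZEB1 samples. Bmpr1b was close to the floor, at 0.389, 0.374 and 0.132 CPM in 393P_vector and 0.0374, 0.108 and 0.197 CPM in 393P_ZEB1 samples (log2 fold change -1.30, SE 0.62, edgeR adjusted p = 0.138). For both genes it was 393P_vector replicate 3 that overlapped with 393P_ZEB1, and without it the log2 fold change was 0.46 for Acvr1 (edgeR adjusted p = 0.0115) and -1.69 for Bmpr1b (edgeR adjusted p = 0.0186). The summed RPKM of the 5 genes was 65.8 ± 7.21 (SD, n = 3) in 393P_vector and 66.7 ± 3.38 (SD, n = 3) in 393P_ZEB1 samples.

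Of the 4 type II receptors, Tgfbr2 and Acvr2a fell. Tgfbr2, the receptor that TGF-β binds first and the most abundant of the 4, was at 220.3, 227.5 and 206 CPM in 393P_vector and 97.7, 112 and 100.3 CPM in 393P_ZEB1 samples. The groups were far apart, and Tgfbr2 fell by 1.08 on the log2 scale (SE 0.10, edgeR adjusted p = 0.000138). Acvr2a, a receptor for activins and some BMPs, was at 27.35, 25.7 and 36.5 CPM in 393P_vector and 18.3, 19.9 and 18.2 CPM in 393P_ZEB1 samples (log2 fold change -0.67, edgeR adjusted p = 0.0128). This call was lost without 393P_ZEB1 replicate 1 or replicate 3, with an adjusted p of 0.0556 and 0.06 from edgeR, and 7.84% of its annotated exon bases overlap Orc4 on the opposite strand. Acvr2b had a log2 fold change of -0.09. Bmpr2, the BMP type II receptor, was at 38.35, 30.4 and 52.0 CPM in 393P_vector and 46.6, 44.1 and 40.2 CPM in 393P_ZEB1 samples, with 393P_vector replicate 3 above all others. Its log2 fold change was 0.12 with all 6 samples and 0.34 without that replicate (edgeR adjusted p = 0.0284). Summed over the 4, type II receptor RPKM was 65.4 ± 1.23 (SD, n = 3) in 393P_vector and 40.3 ± 1.74 (SD, n = 3) in 393P_ZEB1 samples, and the share of Tgfbr2 was 69.8% ± 4.62 and 53.7% ± 1.88 (SD, n = 3 each).

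Among the co-receptors and decoys, Tgfbr3 and Bambi rose. Tgfbr3, the gene of betaglycan, presents TGF-β2 to the receptors and also binds inhibins. It was at 2.17, 2.19 and 1.88 CPM in 393P_vector and 15.4, 14.9 and 14.8 CPM in 393P_ZEB1 samples (log2 fold change 2.85, SE 0.14, edgeR adjusted p = 4.99e-06). Of its 17 exons, 1 held more than 10 reads in each 393P_vector sample, and 15, 15 and 16 did in 393P_ZEB1 samples. Bambi, a pseudoreceptor without a kinase domain, was low throughout, at 0.371, 0.51 and 0.518 CPM in 393P_vector and 1.68, 1.67 and 1.80 CPM in 393P_ZEB1 samples. Its log2 fold change was 1.87 (SE 0.22, edgeR adjusted p = 0.000419), and relative to the median of chromosome 18 it was 1.24 (edgeR adjusted p = 0.00386). Eng, the gene of endoglin, had a log2 fold change of 0.21, with overlapping groups.

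**Figure D3:**
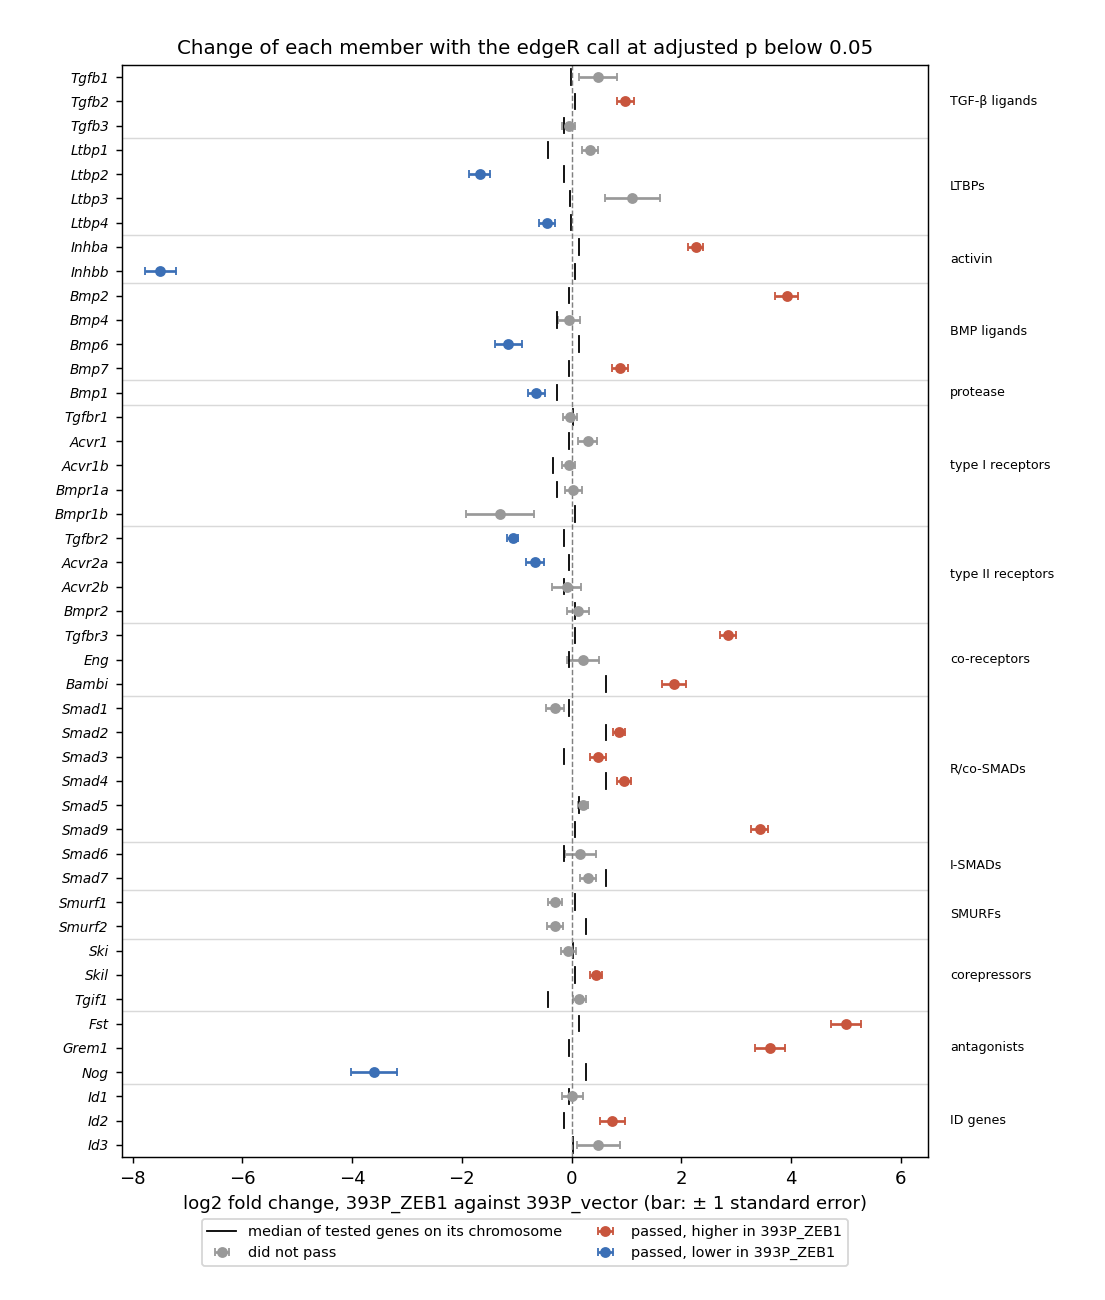
Log2 fold change of each of the 45 genes in 393P_ZEB1 against 393P_vector, with bars of 1 standard error, coloured by edgeR's call at an adjusted p of 0.05, and a black tick at the median log2 fold change of the tested genes of its chromosome. The type I receptors lie near 0 apart from Bmpr1b at -1.30, and Smad2 and Smad4 lie close to the tick of chromosome 18 at 0.64.

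Receptor-regulated and common SMADs were higher or did not pass, with 4 of 6 called higher, against 18.3% of all genes. Of these 4, Smad2 and Smad4 lost the call relative to the median of their chromosome and Smad3 when any 393P_ZEB1 sample was left out. Smad9, a BMP-branch SMAD, was at 1.13, 1.17 and 0.987 CPM in 393P_vector and 11.3, 11.7 and 12.4 CPM in 393P_ZEB1 samples. The groups were widely separated, with a log2 fold change of 3.43 (SE 0.16, edgeR adjusted p = 3.18e-06), and exons with more than 10 reads went from 2, 2 and 1 of 6 to 5 in each 393P_ZEB1 sample. It nevertheless made up 0.604% ± 0.0999 (SD, n = 3) of the summed RPKM of Smad1, Smad5 and Smad9 in 393P_vector samples and 5.96% ± 0.516 (SD, n = 3) in 393P_ZEB1 samples. Smad1 and Smad5, the abundant BMP-branch SMADs, had log2 fold changes of -0.30 and 0.21 and did not pass.

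In the TGF-β and activin branch, Smad3 was at 298.5, 276 and 213 CPM in 393P_vector and 385, 350.2 and 362.5 CPM in 393P_ZEB1 samples. All 393P_ZEB1 samples were higher (log2 fold change 0.48, edgeR adjusted p = 0.031). The call was lost when any 393P_ZEB1 sample was left out, with adjusted p between 0.0709 and 0.103 from edgeR. Those fits called 25.7% to 26.2% of all genes. Smad2 rose by 0.86 on the log2 scale (edgeR adjusted p = 0.000535) and Smad4 by 0.96 (edgeR adjusted p = 0.000951). Both lie on chromosome 18, as Zeb1 does. Relative to the median of its genes, Smad2 was at 0.22 (edgeR adjusted p = 0.149) and Smad4 at 0.32 (edgeR adjusted p = 0.0996), and neither passed. The part of the shift of chromosome 18 in the values of Smad2 and Smad4 was not tested. Summed Smad2 and Smad3 RPKM was 62.5 ± 7.85 (SD, n = 3) in 393P_vector and 91.7 ± 3.69 (SD, n = 3) in 393P_ZEB1 samples.

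The inhibitory SMADs did not pass. Smad7, which blocks type I receptors and is itself a TGF-β target, was at 165, 165 and 117 CPM in 393P_vector and 178, 194 and 179 CPM in 393P_ZEB1 samples. It was higher in all 393P_ZEB1 samples (log2 fold change 0.30, edgeR adjusted p = 0.148), and the sign turned relative to the median of chromosome 18, at -0.34 (edgeR adjusted p = 0.128). Smad6, the inhibitor of the BMP branch, had a log2 fold change of 0.16 and overlapping groups.

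**Figure D4:**
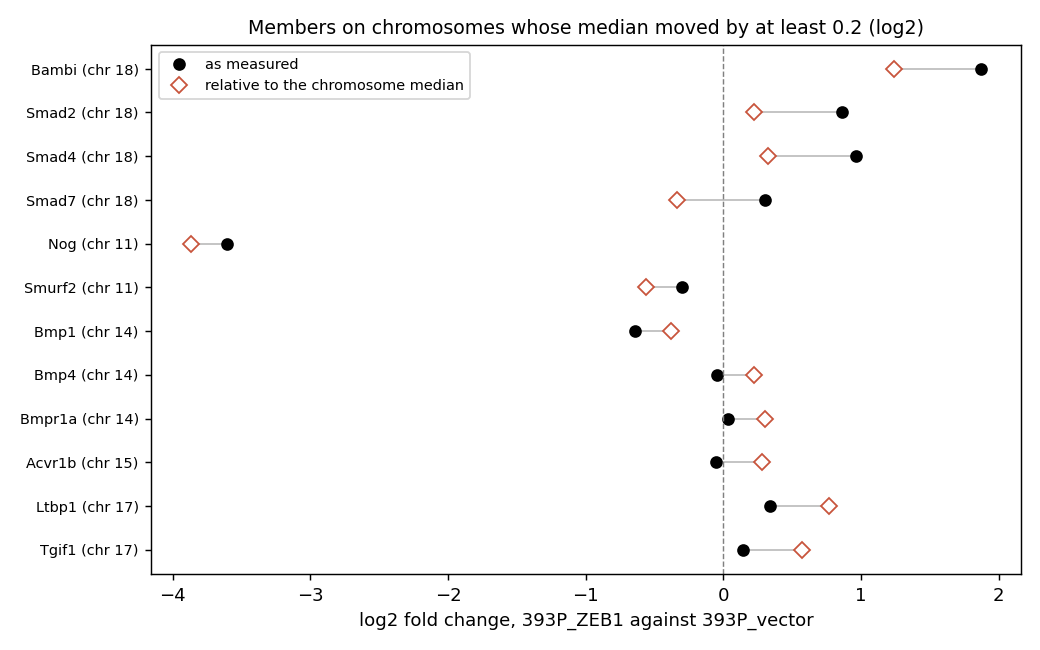
Log2 fold change of the 12 genes on chromosomes whose median log2 fold change was at least 0.2 in either direction, as measured (black circles) and relative to that median (open diamonds). Smad7, Bmp4 and Acvr1b change sign, and Smad2 and Smad4 move to 0.22 and 0.32.

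SMURFs and nuclear corepressors changed little. Smurf1, a ubiquitin ligase that marks BMP SMADs and receptors for degradation, was at 178, 164 and 129 CPM in 393P_vector and 127, 132 and 123 CPM in 393P_ZEB1 samples, and Smurf2 had a log2 fold change of -0.30. For Smurf1 393P_vector replicate 3 overlapped with 393P_ZEB1, and without it the log2 fold change was -0.43 (edgeR adjusted p = 0.000863) against -0.30 with all 6 samples. Skil, the gene of SnoN, which holds SMAD complexes inactive and is a TGF-β target, was at 308, 283 and 326 CPM in 393P_vector and 453, 395 and 394.5 CPM in 393P_ZEB1 samples. It rose by 0.44 on the log2 scale (edgeR adjusted p = 0.0164). That call was lost without 393P_vector replicate 1, 393P_vector replicate 2 or 393P_ZEB1 replicate 1, with adjusted p between 0.0532 and 0.0592 from edgeR. Ski was at 249, 241 and 183 CPM in 393P_vector and 213, 218 and 215 CPM in 393P_ZEB1 samples, so that the 393P_vector samples lay on both sides of the 393P_ZEB1 ones. Its log2 fold change was -0.06, and -0.19 without 393P_vector replicate 3 (edgeR adjusted p = 0.0459). Tgif1 had a log2 fold change of 0.14, and of 0.57 relative to the median of chromosome 17 (edgeR adjusted p = 0.00652).

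ID genes encode helix-loop-helix proteins that block differentiation factors and are direct targets of BMP SMADs. Id1, the most abundant of the 3, was at 55.0, 62.3 and 71.8 CPM in 393P_vector and 47.2, 70.4 and 73.7 CPM in 393P_ZEB1 samples (log2 fold change 0.02, edgeR adjusted p = 0.956). Id2 was at 31.8, 30.9 and 54.3 CPM in 393P_vector and 65.2, 71.05 and 59.7 CPM in 393P_ZEB1 samples. The groups did not overlap, and Id2 rose by 0.74 on the log2 scale (edgeR adjusted p = 0.0341), a call lost without any 1 sample other than 393P_vector replicate 3, with adjusted p up to 0.111 from edgeR. Id3 was at 9.81, 9.4 and 26.0 CPM in 393P_vector and 18.9, 26.5 and 18.2 CPM in 393P_ZEB1 samples. In Id2 and Id3 alike, 393P_vector replicate 3 was the sample nearest the 393P_ZEB1 values, and without it Id3 had a log2 fold change of 1.14 (edgeR adjusted p = 0.000249) against 0.49 with all 6 samples (edgeR adjusted p = 0.367).

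More of the genes passed without 393P_vector replicate 3. With it left out, 31 of the 45 genes passed, the 22 called with all 6 samples plus Tgfb1, Ltbp1, Ltbp3, Acvr1, Bmpr2 and Id3, which were higher in 393P_ZEB1, and Bmpr1b, Smurf1 and Ski, which were lower. The share of all genes called was 53.0% in that fit, against 37.6% with all 6 samples. In fits without 1 of the other samples, 25.7% to 32.4% of all genes were called. Of the 22 calls made with all 6 samples, 16 held whichever single sample was left out. Those 16 include all 12 genes with a 2-fold change, and the remaining 4 were Tgfb2, Bmp7, Smad2 and Smad4. Nothing in the labels sets 393P_vector replicate 3 apart, and it remained in all other values here. Its total of 79158012 counts was the largest, against at most 61251074 in any other sample, and a link to depth was not tested.

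**Figure D5:**
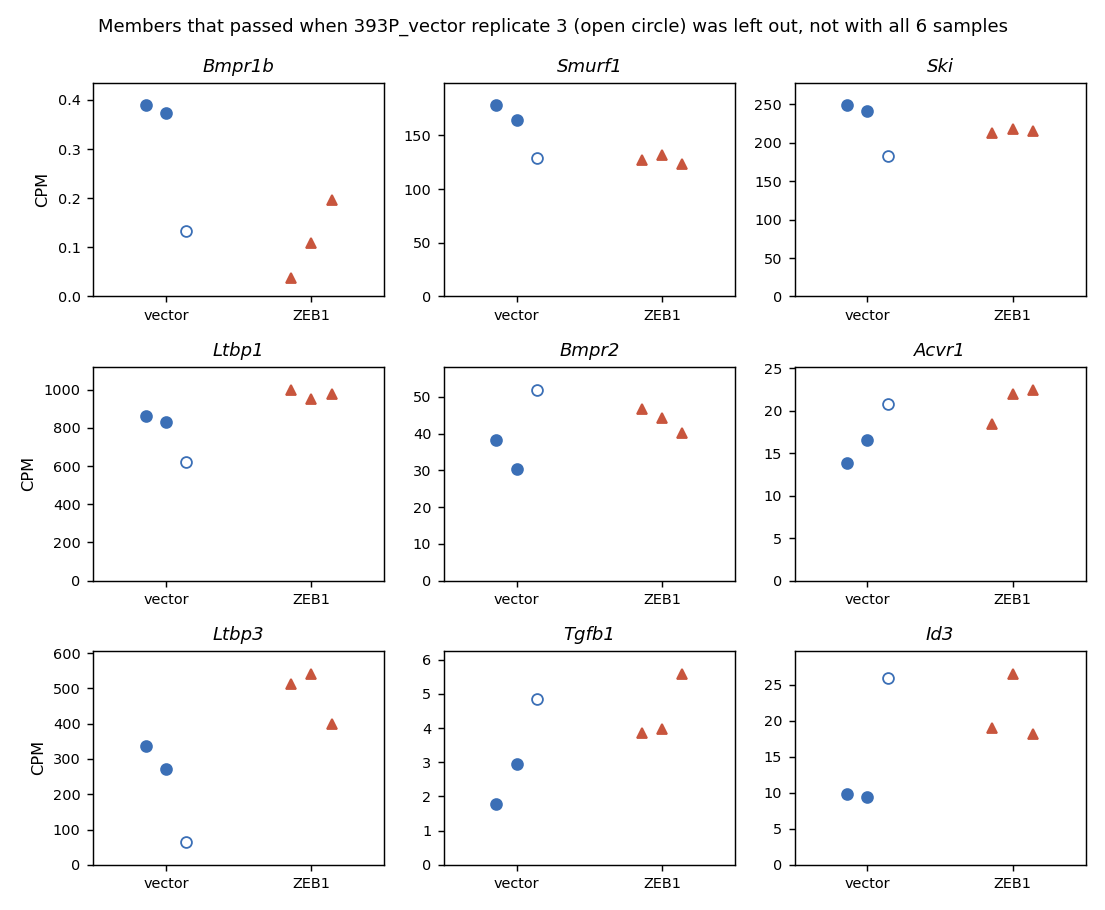
CPM per sample of the 9 genes that did not pass with all 6 samples and passed when 393P_vector replicate 3 (open circle) was left out, each on its own linear axis from 0. In Tgfb1, Acvr1, Bmpr1b, Bmpr2, Smurf1, Ski and Id3 the open circle lies away from both other 393P_vector samples, towards or past the 393P_ZEB1 ones, and in Ltbp1 and Ltbp3 it lies farther below them.

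ZEB1 is known to bind E-boxes of the form CAGGTG, and promoters of the genes were therefore read for these letters. RefSeq promoter windows on GRCm38.p6, from 250 bases before to 50 bases after an annotated start, were matched for 32 of the 45 genes. CAGGTG or its reverse complement CACCTG was present in 6 of the 32 (18.8%), namely Bmp4, Bmp6, Bmpr1b, Ltbp2, Ltbp4 and Smad9, and in 22.6% of 27025 genes with a window and 21.1% of the 9748 tested genes with one. Among genes called by edgeR, 1 of 6 matched genes that were higher and 3 of 6 that were lower held it. The share of 18.8% over the 32 genes was near that of all genes. For the counts by direction, the share among all higher or all lower genes was not computed. The general E-box CANNTG, which includes both forms, was present in 17 of the 32 (53.1%) against 67.4% of tested genes. The GC-rich letters GGCGCC, known as a SMAD-binding element of BMP targets, were in 11 of the 32 (34.4%) against 24.6% of tested genes. CANNTG and GGCGCC read alike on both strands. A match of letters is a description of the window and not a measured site. The windows of Bambi, Bmp1, Bmp2, Bmp7, Fst, Id1, Nog, Skil, Smad2, Smad4, Smad7, Tgfb3 and Tgfbr3 were not matched.

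The stretch around the match is shown for the 4 genes that hold it among the 12 called genes with a matched window. The rest of the 22 called genes had no window to read, and Bmp4 and Bmpr1b hold the letters without a call. The stretch of Smad9, which rose, is chr3:54755337-54755402 on the plus strand, 245 to 180 bases before the start. That of Ltbp2, which fell, is chr12:84876679-84876741 on the minus strand, 250 to 188 bases before the start. For Bmp6, which fell, it is chr13:38345635-38345700 on the plus strand, 81 to 16 bases before the start, and for Ltbp4, which fell, chr7:27337759-27337824 on the minus strand, 212 to 147 bases before the start. The 6 matched letters are in capitals, and each sequence is written 5′ to 3′ on the strand of the gene.
Smad9: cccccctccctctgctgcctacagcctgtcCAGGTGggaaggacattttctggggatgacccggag
Ltbp2: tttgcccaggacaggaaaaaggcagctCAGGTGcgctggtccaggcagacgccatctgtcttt
Bmp6: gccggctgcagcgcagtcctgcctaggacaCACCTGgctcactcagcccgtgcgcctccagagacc
Ltbp4: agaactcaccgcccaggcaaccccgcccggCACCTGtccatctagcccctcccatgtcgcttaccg

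The letters begin 215 bases before the start in Smad9, 223 in Ltbp2 and 51 in Bmp6. Ltbp4 has 3 annotated starts with a window, of which 2 hold a match. The one shown lies 182 bases before the start at which the counted gene begins, and the other lies 239 bases before a start 3949 bases further into the gene. Smad9 rose and the other three fell, as given above, so the same letters stood at genes that changed in opposite directions.

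Other genes of the pathway were counted from a list of 116 symbols, of which 114 were in the tables and 77 passed the filter. Of the 77, 20 were higher in 393P_ZEB1 and 17 lower, a share called of 48.1% against 37.6% of all genes, with a median log2 fold change of 0.03. The 6 largest rises among those with at least 1 CPM in a group were Msx1, a homeobox target of BMP SMADs, at 6.58 on the log2 scale, Fstl1, a secreted follistatin-like protein, at 4.56, the collagen gene Col3a1 at 3.75, the distant ligand Gdf15 at 3.50, Fbn1, the fibrillin to which LTBPs attach, at 3.47, and the BMP co-receptor Rgma at 2.68. The 6 largest falls were of the proteoglycan Bgn at -8.12, the actin-binding Tagln at -6.51, Itgb6, a subunit of the integrin that frees latent TGF-β, at -4.99, the BMP antagonist Nbl1 at -2.87, smooth muscle actin Acta2 at -2.21, and Ctgf at -1.34. Each of the 12 passed with an adjusted p of at most 0.00141 from edgeR.

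Bgn, the most changed of them, was at 278, 265 and 365 CPM in 393P_vector and 0.934, 1.37 and 0.95 CPM in 393P_ZEB1 samples. Among listed targets of SMAD2 and SMAD3, 2 of 16 tested were higher, 5 lower and 9 did not pass. The share called was 43.8%, near the 37.6% of all genes. Those higher were Col3a1 and Fn1, the fibronectin gene, at 0.56 on the log2 scale, and those lower included Tagln, Acta2, Ctgf and Itga5. Of 8 tested targets of SMAD1 and SMAD5, 3 were higher and 2 lower. Among genes of latency and activation 2 of 9 were higher and 3 lower, and among other secreted antagonists and binders 2 of 10 were higher and 3 lower. Other ligands gave 3 higher and 1 lower of 7, other receptors and co-receptors 3 higher and 0 lower of 6, and intracellular modulators 5 higher and 3 lower of 22. Over all genes tested, 18.3% were higher and 19.3% lower.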

How the data were processed

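Total RNA of 393P cells, 3 393P_vector and 3 393P_ZEB1 samples grouped by the condition in their labels, was read with SOLiD chemistry. Per sample, the authors deposited unnormalized read counts for 24214 RefSeq features on coordinates of GRCm38. The authors also deposited RPKM values, which rest on 99.1% to 99.32% of the summed counts and were not used, exon lengths, and the number of exons with over 10 reads. The aligner, the counting program and its use of strand are not given in the sources used here.

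Counts were compared in R 4.3.3 with edgeR 4.0.16 (filterByExpr with a minimum count of 10, which left 13892 genes, TMM factors of 0.979 to 1.05, robust quasi-likelihood fit without a replicate block, Benjamini-Hochberg adjustment over all genes tested, threshold 0.05). The biological coefficient of variation was 0.184. CPM and RPKM printed here were computed from the counts with TMM-scaled library sizes. Exact permutation tests were two-sided on log2(CPM + 0.5). Promoter windows came from RefSeq, and exon overlaps from GENCODE M21.

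The genes and lists were chosen with earlier results of these data known. Values of every sample are given for genes past the threshold with at least a 2-fold change, for the most abundant gene of each role, and for genes whose call depended on 1 sample, and from the wider list the 6 largest rises and falls with at least 1 CPM are named. Bgn is given by sample as the largest of these. Fn1, Itga5, Snai1, Snai2 and Fstl3 were named after their values were seen. Alternatives were DESeq2 1.42.0 (size factors within edgeR, and its Wald test), limma 3.58.1 voom with sample weights, other count filters, the replicate number as a block, leaving out each sample, an adjusted p of 0.01, values relative to the median of the chromosome, and leaving out the 10 most counted genes. Tables and plots used Python 3.11.15, pandas 2.3.3, NumPy 2.4.6 and matplotlib 3.10.9.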

Additional observations from a re-analysis of the deposited data

How the results depend on the processing

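The counts of 14 genes higher and 8 lower were within 1.5 times under each alternative, with exceptions in the count lower. That count was 5 at an adjusted p threshold of 0.01, and leaving out single samples gave 5 to 11, with 5 without 393P_ZEB1 replicate 1 and 5 without 393P_ZEB1 replicate 3. The share of all genes called was 26.2% and 25.7% without these samples, against 37.6% with all 6 samples. It was 53.0% without 393P_vector replicate 3, the fit that gave 11. Of the 22 called genes 14 stayed past the threshold in every setting run for them, 9 higher and 5 lower, and 0 of the 22 changed sign. The 8 that did not were Ltbp4, Bmp1, Acvr2a, Smad2, Smad3, Smad4, Skil and Id2. Relative to the median of the chromosome the sign turned for Tgfb3 (0.086), Bmp4 (0.22), Acvr1b (0.28), Acvr2b (0.048) and Smad7 (-0.34), all below the threshold, Ltbp4 (-0.43) joined Bmp1, Smad2 and Smad4 in losing the call, and Ltbp1 (0.77), Smurf2 (-0.56) and Tgif1 (0.57) gained one. With voom and sample weights Bmp4 was at 0.16, and 8 genes gained a call.

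Leaving out single samples turned the sign in genes near 0, with log2 fold changes of -0.10 to 0.02 for Acvr1b, -0.25 to 0.20 for Acvr2b, -0.16 to 0.16 for Bmp4, -0.057 to 0.18 for Bmpr1a, -0.047 to 0.34 for Bmpr2, -0.089 to 0.20 for Id1, -0.19 to 0.026 for Ski, -0.004 to 0.389 for Smad6, -0.10 to 0.014 for Tgfb3 and -0.12 to 0.054 for Tgfbr1. The cause was not tested. The share of all genes called ran from 22.3% (no filter, which tests more genes) to 58.1% (voom with sample weights).

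Samples share replicate numbers between groups, but deviations of equal numbers correlated at r = 0.279, -0.205 and -0.0377 across genes, so the numbers are not taken as pairs. With the replicate block 15 genes were higher and 7 lower, Ltbp3 gained a call (log2 fold change 1.39, adjusted p = 0.0347 from edgeR), Ltbp4 lost it, and Id1 was at -0.002. Depth limits Nog in 393P_ZEB1 and Bmpr1b, which lay near the floor of 3 counts.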
